A study of Drosophila melanogaster with 3 samples.

Results

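The genes described are 10 regulators of sex determination and dosage compensation in Drosophila melanogaster: Sxl, tra, dsx, msl-1, msl-2, msl-3, mle, mof, lncRNA:roX1 and lncRNA:roX2. They were taken by their symbols in the dm6 annotation, and all 10 were found among 16725 protein-coding and noncoding RNA genes. The question put to the data was which of them carry binding of the homeodomain protein HHEX (CG7056) in the embryo. HHEX was mapped by ChIP-seq, in which DNA bound by a protein is pulled down with an antibody and sequenced. The 1 group consisted of whole embryos aged 0 to 24 h, male and female pooled, from a transgenic line that stably expresses CG7056 with GFP at its C-terminus. The immunoprecipitation used an anti-GFP antibody, and there were 3 biological replicates. What drives the fusion gene, and whether untagged CG7056 is also made, is not given in the labels. No second genotype, tissue or stage was included, so nothing below compares conditions. The pooling of sexes means that male and female chromatin cannot be told apart, and whole embryos do not show which cells a peak came from.

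In the fly, sex is set by the dose of X chromosomes, read by a set of X-linked and autosomal activators and repressors at an early promoter of Sxl. Sxl protein then keeps its own gene active in females through splicing of transcripts from an upstream late promoter. It also directs the female splicing of tra, whose product with its partner directs the sex-specific splicing of dsx, which encodes the transcription factors that shape male and female bodies. In males, where Sxl protein is absent, the MSL complex forms. It joins the proteins MSL1, MSL2, MSL3, the helicase MLE and the histone acetyltransferase MOF with the noncoding roX RNAs, and raises transcription of the single X. In females Sxl blocks translation of msl-2. The roX genes themselves lie on the X and carry sites at which the MSL complex enters the chromosome.

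Binding was read from the authors' lists of enriched regions. The main list held 5586 peaks that passed the irreproducible discovery rate (IDR) procedure, which is meant to keep regions ranked alike in replicates. Longer lists of 30000 regions came from the pooled reads (the pooled list) and from each replicate, and reach far down into background. The signals of the main list were the 5586 highest of the pooled list, so it acted as a cut on pooled signal. Being in it does not show that the replicates ranked a region alike, and 89.9% of its peaks were in all 3 replicate lists. Each region carries a signal, a height given by the authors' peak-calling step. It ranks and describes regions within a list, and no rescaling between lists was applied, so an SD over replicates also holds any difference in scale. IDR peaks had signals of 155.9 to 5323 in the pooled list, with a median of 255. Read depth is unknown, because the files give regions and not reads. The control alignment was not analysed here, so regions enriched in any anti-GFP immunoprecipitation cannot be told apart from HHEX sites.

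Of the 10 genes, 3 had an IDR peak in the gene or within 5000 bp of it, beside 48.5% of all genes. In all, 9 IDR peaks were found there. Sxl had 6, roX2 had 2 and tra had 1. Sequences around the summits, the points of highest signal, are given for the strongest Sxl and roX2 peaks and for every peak in which a searched DNA word was found. They are 200 bases centred on the summit, read 5′ to 3′ on the plus strand of the RefSeq genome sequence of the same build (dm6), with matches to the searched words in capitals. The window at tra is cut to 138 bases to leave out bases in an untranslated region. The Sxl window 1413 bp into the gene spans chrX:7096541-7096740, that at 2340 bp chrX:7095614-7095813, that at 2971 bp chrX:7094983-7095182, that at the end of roX2 chrX:11580294-11580493, and that past tra chr3L:16588144-16588281.
Sxl, 1413 bp into the gene: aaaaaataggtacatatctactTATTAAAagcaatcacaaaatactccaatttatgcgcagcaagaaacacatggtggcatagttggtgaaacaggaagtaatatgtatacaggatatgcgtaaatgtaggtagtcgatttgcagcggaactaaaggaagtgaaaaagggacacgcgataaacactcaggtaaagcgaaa
Sxl, 2340 bp into the gene: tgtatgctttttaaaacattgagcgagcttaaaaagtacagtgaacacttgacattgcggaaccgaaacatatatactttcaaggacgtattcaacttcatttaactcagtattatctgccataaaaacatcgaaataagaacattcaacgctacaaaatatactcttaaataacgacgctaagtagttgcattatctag
Sxl, 2971 bp into the gene: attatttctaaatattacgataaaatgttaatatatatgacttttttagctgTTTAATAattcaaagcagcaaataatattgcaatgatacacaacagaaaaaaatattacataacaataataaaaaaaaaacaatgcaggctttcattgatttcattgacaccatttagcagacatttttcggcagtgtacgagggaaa
roX2, at the 3′ end of the gene: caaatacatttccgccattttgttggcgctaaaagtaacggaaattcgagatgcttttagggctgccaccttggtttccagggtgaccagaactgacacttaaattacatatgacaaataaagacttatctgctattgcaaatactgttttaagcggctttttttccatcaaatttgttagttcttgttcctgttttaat
tra, past the 3′ end of the gene: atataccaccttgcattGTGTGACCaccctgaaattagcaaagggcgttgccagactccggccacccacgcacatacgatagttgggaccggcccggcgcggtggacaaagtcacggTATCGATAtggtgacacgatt

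Sxl encodes the RNA-binding master regulator of female development, and it was the one gene of the 10 with an IDR summit within 1000 bp of an annotated transcription start site (TSS). Over all genes, 21.6% met this criterion. Sxl (FBgn0264270) spans chrX:7074550-7098053 on the minus strand, is 23504 bp long and has 4 annotated TSSs. Of these, 3 lie within 987 bp of the upstream end and 1 lies 5170 bp into the gene. The annotation used here does not say which of them is the early or the late promoter.

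The strongest peak at any of the 10 genes was in an Sxl intron, 1413 bp into the gene and 426 bp from the nearest Sxl TSS (chrX:7096519-7096749). Its signal was 196, 169.5 and 179 in replicates 1, 2 and 3, a mean of 182 ± 13.4 (SD, n = 3). The replicates lay close together, and the region ranked 785, 932 and 833 of 30000 in their lists. In the pooled list its signal was 546, rank 820, and 85.3% of all IDR peaks were lower.

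The next Sxl peak lay further into the gene, at 2340 bp (chrX:7095620-7095811), and had a pooled signal of 412 at rank 1313. Its replicate signals were 116, 140.0 and 153, a mean of 136 ± 18.5 (SD, n = 3). Every replicate value of this peak was below every replicate value of the peak at 1413 bp. Both peaks were read in the same 3 replicates, so their values are paired by replicate. Even for 3 against 3 unpaired values, the smallest two-sided exact permutation p is 0.1. No test was made, and this order is a description.

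A weaker peak sat 122 bp inside the most upstream TSS of Sxl (chrX:7097719-7098142). It had a pooled signal of 204 at rank 3850. Replicate 1 gave 76.1 and replicate 3 gave 106, while the replicate 2 list held no region at this summit. The peak at the promoter end of Sxl therefore rests on 2 of the 3 replicates. The last Sxl peak, 2971 bp into the gene (chrX:7094870-7095293), was close to the threshold of the IDR list, with a pooled signal of 157 at rank 5538. It was nonetheless present in all 3 replicate lists, at 43.0, 52.5 and 56.6.

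The 4 summits inside Sxl lay between 122 and 2971 bp from the gene's upstream end. No IDR summit was found in the remaining 20532 bp downstream. The TSS at 5170 bp lay 2199 bp from the nearest IDR summit. The pooled list added 2 faint regions in the gene, with signals of 54.9 at 658 bp and 56.0 at 7436 bp. Replicate 1 alone listed a region at 11255 bp. Its signal of 48.65 was above the 43.01 of replicate 1 at the IDR peak at 2971 bp. At least 4 IDR summits in the body were found in 1.5% of all genes, but long genes hold more summits. Sxl is longer than 94.7% of genes, and of the 883 genes at least as long, 20.7% had 4 or more and 59.7% had at least 1.

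**Figure D1:**
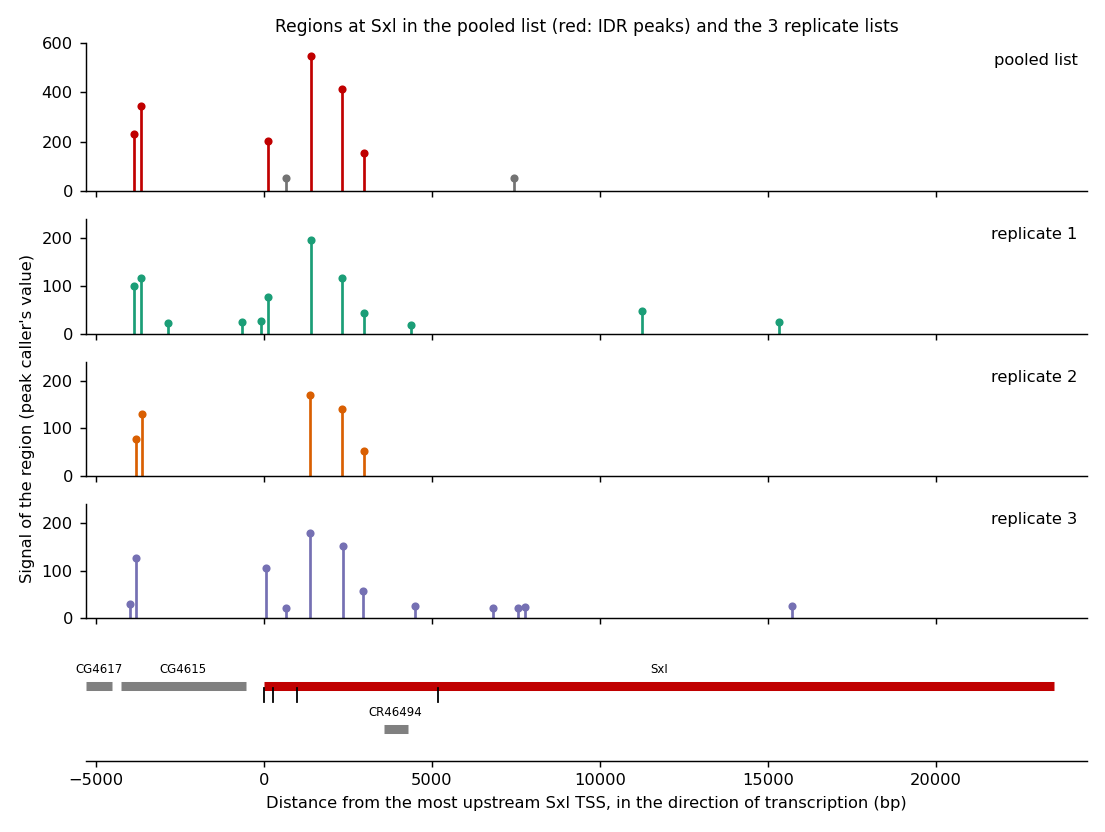
Regions at Sxl, placed by the distance of their summit from the most upstream Sxl TSS (bp, in the direction of transcription), with the height giving the signal in the pooled list (top, IDR peaks in red) and in replicates 1 to 3. Bars at the bottom show genes (Sxl in red) and ticks mark Sxl TSSs; the peaks at 1413 and 2340 bp stand highest inside the gene in every list, and no IDR peak lies in the last 20532 bp.

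The remaining pair of peaks lay upstream of Sxl, inside an intron of the neighbouring gene CG4615. Their summits were 3861 bp and 3660 bp from the Sxl start but only 386 bp and 587 bp from the TSS of CG4615. The nearer one to Sxl (chrX:7101501-7101924) had a pooled signal of 345 at rank 1711, and signals of 118, 130.1 and 127 in replicates 1, 2 and 3. The other (chrX:7101702-7102125) had a pooled signal of 230.2 at rank 3240, and replicate signals of 99.6, 78.8 and 127. These 2 regions overlap by 223 bp and replicate 3 covers both summits with a single region, so the value of 127 is the same measurement for both. Replicate 3 also listed a weaker region, of 30.1, with its summit farther upstream of Sxl.

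roX2 and roX1 encode the noncoding RNAs of the MSL complex, which can substitute for each other. Of the pair, roX2 had IDR peaks in the gene or within 5000 bp and roX1 had none. roX2 (FBgn0019660, chrX:11579065-11580432, plus strand) carried a peak in its exon (chrX:11580181-11580604), with the summit 39 bp before the 3′ end of the gene and 1328 bp from its TSS. Its signal was 92.5, 106 and 137 in replicates 1, 2 and 3, a mean of 112 ± 22.9 (SD, n = 3), and 345 in the pooled list at rank 1714. The peak was in every replicate list, at ranks 2899, 1845 and 1354. The nearest TSS belonged to the next gene downstream, nod, which encodes a kinesin-like protein, and was 379 bp away. The pooled list held a further region past the 3′ end of roX2, with its summit 1527 bp from the roX2 TSS. Its signal of 153 fell just under that of the lowest IDR peak, 155.9, and replicate 3 had a region of 80.0 at 1523 bp.

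A second peak near roX2 lay 2320 bp upstream of its TSS (chrX:11576533-11576956), with a pooled signal of 180.3 at rank 4588. It fell between 2 divergent genes, 125 bp from the TSS of e(y)2 and 138 bp from that of CG11695. The replicate signals were 44.4, 64.9 and 72.0, a mean of 60.4 ± 14.3 (SD, n = 3). At the roX2 TSS itself neither the IDR list nor the pooled list held a region within 1000 bp. Replicate 1 had a faint one 263 bp away, at a signal of 30.8 and rank 15626.

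roX1 (FBgn0019661, chrX:3857230-3862697, minus strand) had no IDR peak within 5000 bp, and the nearest was 5951 bp from one of its 3 TSSs. The highest pooled region within 5000 bp had a signal of 109.7 at rank 9186. It lay in an intron of the neighbouring gene yin, 575 bp from the yin TSS. The replicate lists gave 48.3, 24.8 and 35.3 there, at ranks 8203, 20708 and 12632. Within 1000 bp of a roX1 TSS, replicate 1 alone had a region, 700 bp away, with a signal of 40.5 at rank 10690.

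**Figure D2:**
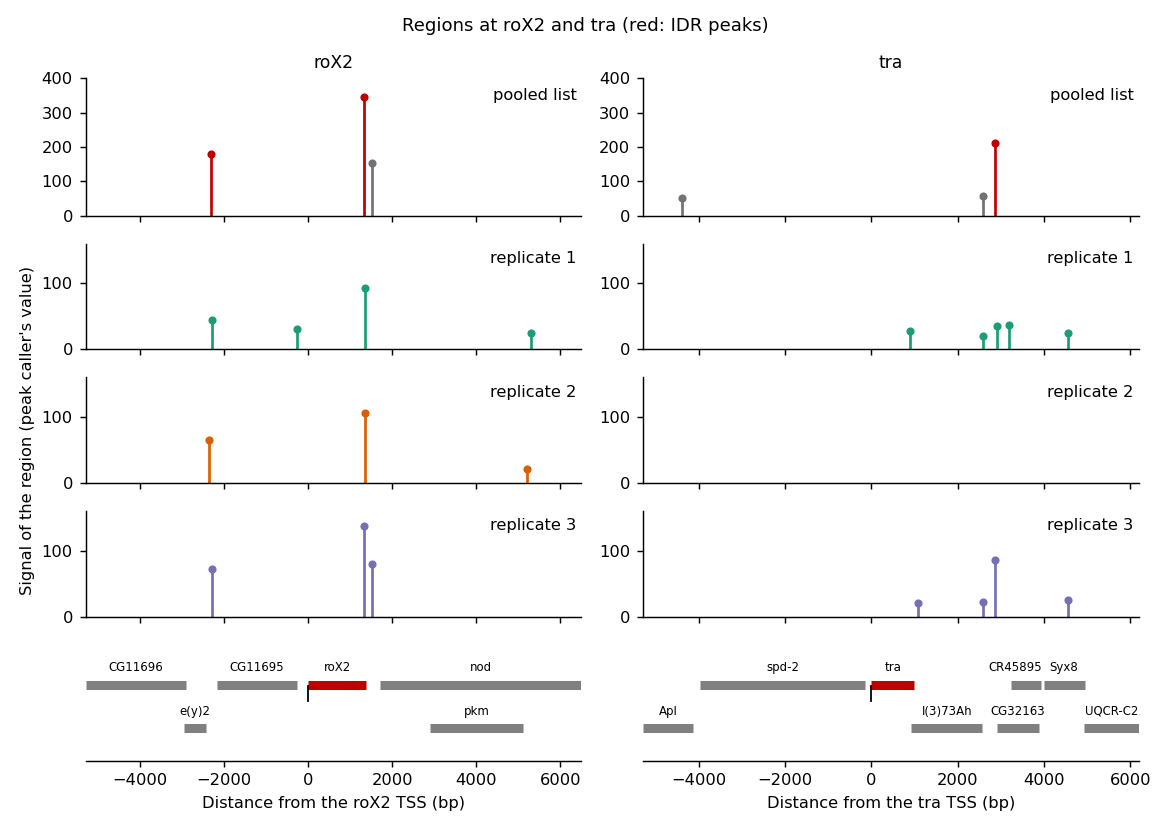
Regions around roX2 (left) and tra (right) by distance of the summit from the TSS (bp), with signal on the vertical axes for the pooled list (IDR peaks in red) and replicates 1 to 3, and genes as bars below. The roX2 peak sits at the 3′ end of the gene, next to the start of nod, with 92.5 to 137 in the replicates; at tra the peak lies beyond l(3)73Ah and replicate 2 holds no region.

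tra and dsx, the targets of the Sxl splicing cascade, had no IDR summit in their bodies. tra (FBgn0003741, chr3L:16590059-16591050, minus strand) encodes a splicing factor that is functional in females. Its peak (chr3L:16587969-16588392) lay 1878 bp past its 3′ end and 2869 bp from its TSS. The pooled signal was 213 at rank 3602. The summit was 294 bp from the TSS of l(3)73Ah, 376 bp from that of asRNA:CR45895 and 892 bp from that of CG32163, all nearer than the TSS of tra. Replicate 1 gave a signal of 35.8 at rank 12787 and replicate 3 one of 85.0 at rank 3027. Replicate 2 had no region there. It was the least even of the 9 peaks across replicates, with a mean of 60.4 ± 34.8 (SD, n = 2).

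dsx (FBgn0000504, chr3R:7924323-7967408, minus strand) is 43086 bp long, longer than 97.5% of genes, and had no IDR peak in it or within 5000 bp. It came closest to the threshold of the IDR list among the 7 genes without a peak. A pooled region in a dsx intron (chr3R:7962988-7963411), 414 bp from the dsx TSS at 7962786, had a signal of 139.5 at rank 6549 and a −log10 q of 2.02. The lowest IDR peak had a signal of 155.9. The replicates gave 40.3, 27.1 and 66.5, at ranks 10765, 16879 and 4505, so that replicate 3 alone placed it among its 5586 highest regions.

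None of the 5 genes for the MSL proteins had an IDR peak in the gene or within 5000 bp, beside 48.5% of all genes. msl-1 (FBgn0005617, chr2L:18683720-18688800, minus strand) encodes the scaffold of the complex, and a pooled region 57 bp from its TSS had a signal of 81.1 at rank 14280. All 3 replicate lists held a region within 100 bp of the msl-1 TSS, with signals of 28.9, 34.7 and 25.8, but at ranks of 16921, 9774 and 20848. The median signal of all listed regions was 78.4 in the pooled list and 31.7, 28.5 and 31.65 in replicates 1, 2 and 3, and the msl-1 values lay on both sides of these medians.

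msl-2 (FBgn0005616, chr2L:3462218-3466112, minus strand) encodes the male-specific subunit that Sxl represses. It was the one gene of the 10 with no region of the pooled list within 5000 bp. Replicate 1 had a region 487 bp from its TSS at a signal of 26.1 and replicate 3 one 68 bp from it at 27.3, at ranks 19380 and 19057. Replicate 2 had none. msl-3 (FBgn0002775, chr3L:7123213-7125533, minus strand), a chromodomain protein gene, had a pooled region of signal 55.9 at rank 24772 in an intron of the nearby gene Acbp6. No replicate list held a region at that summit. The one region within 1000 bp of the msl-3 TSS in any list was in replicate 2, 674 bp away, with a signal of 33.9 at rank 10185.

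In the pooled list mof and mle, the genes for the acetyltransferase and the helicase, had stronger regions nearby than msl-3, but these lay in other genes. The order was not the same in replicate 2, where msl-3 had 33.9, mle at most 33.3 and mof no region. At mof (FBgn0014340, chrX:5873840-5876853, minus strand) the highest pooled region had a signal of 95.5 at rank 11238. It lay in the 5′ UTR of CG16721, 82 bp from the TSS of that gene. Replicates 1 and 3 gave 44.8 and 28.8 there and replicate 2 held no region. At the mof TSS there were faint regions in replicate 1 (26.1, rank 19482) and replicate 3 (23.3, rank 24341). At mle (FBgn0002774, chr2R:5974857-5980778, minus strand) the highest pooled region had a signal of 101 at rank 10270 and lay in an intron of Src42A, a tyrosine kinase gene. The replicates gave 21.5, 28.7 and 47.2 at its summit, and no list held a region within 1000 bp of an mle TSS. In each replicate the strongest region near mle was another one. Replicate 1 had it 1529 bp from an mle TSS, at 36.2 and rank 12566. In replicates 2 and 3 it lay 236 and 300 bp past the 3′ end of mle, at 33.3 and 78.1. The nearest IDR summit to an mle TSS was 36962 bp away, the longest such distance among the 10 genes.

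**Figure D3:**
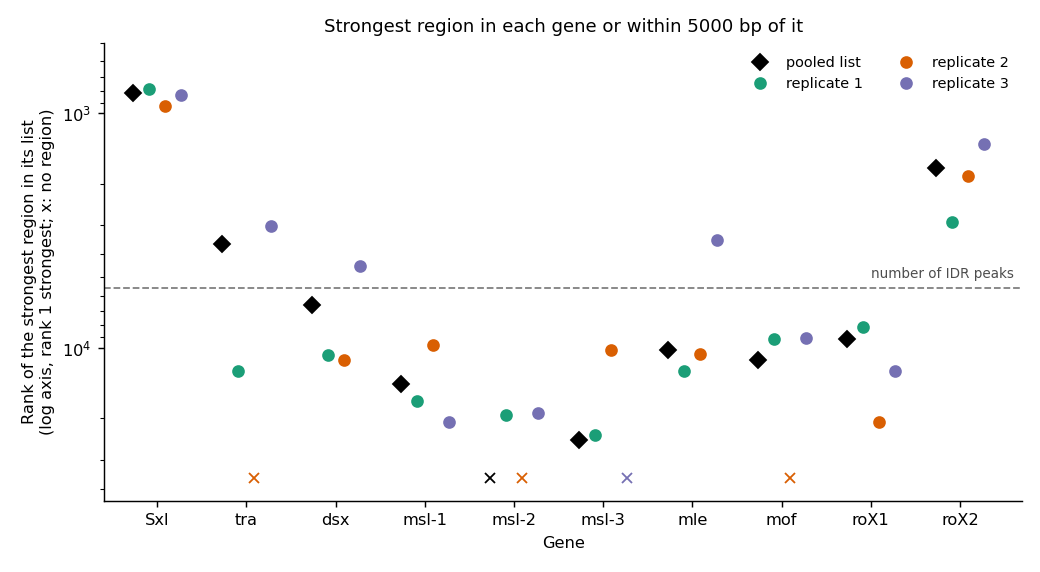
Rank of the strongest region in each gene or within 5000 bp of it, in the pooled list (diamonds) and the 3 replicate lists (circles); the vertical axis is logarithmic with strong regions at the top, crosses mark lists with no region, and the dashed line marks rank 5586, the number of IDR peaks. Sxl (ranks 785 to 932) and roX2 (1354 to 2899) lie above the line in every list, tra in the pooled list and replicate 3, and dsx and mle in replicate 3.

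Set against the genome, the counts for the 10 genes stood above the share over all genes for gene bodies and below it at TSSs and within 5000 bp, with each gene worth 10% of the set. An IDR summit lay in the body of 2 of 10, Sxl and roX2, against 13.2% of all genes. One lay in the gene or within 5000 bp of it in 3 of 10, against 48.5% of all genes. The 10 genes are longer than most, with a median length of 4488 bp against 1822 bp over all genes. Because the peaks near a gene are often close to another gene's start, the counts by distance do not assign a peak to a gene. Of the 9 peaks, 3 had an Sxl TSS as their nearest TSS and 6 were nearer to a TSS of another gene, 5 of these within 1000 bp. Counting only peaks whose nearest TSS was that of the gene itself left Sxl alone, both for the body and for the 5000 bp window. The share over all genes was not computed under this rule, so the drop cannot be called particular to these genes.

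The replicates were also read one by one. Among the 5586 highest regions of each replicate, a summit within 1000 bp of a TSS was found for 1 of the 10 genes in replicate 1 (Sxl, with 22.2% of all genes), 1 in replicate 2 (Sxl, with 20.2%) and 2 in replicate 3 (Sxl and dsx, with 21.8%). The mean was 1.33 ± 0.577 genes (SD, n = 3). In the full pooled list, which reaches into background, Sxl, dsx and msl-1 had a summit within 1000 bp of a TSS, 3 of 10, against 51.8% of all genes. For the gene or 5000 bp around it the pooled list gave 9 of 10, against 83.7%.

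Measured as a distance, the nearest IDR summit to a TSS was at a median of 6147 bp for the 10 genes and 6844 bp for all genes. Sxl was at 122 bp, nearer than all but 7.80% of genes. That distance is to the peak absent from replicate 2, and the strongest Sxl peak lay 426 bp from a TSS. Sxl also has 4 TSSs from which a distance can be taken. After Sxl came roX2 at 1328 bp and tra at 2869 bp. msl-1, roX1, msl-2, msl-3 and dsx followed between 5222 and 10294 bp, near the middle of the distribution. mof at 19311 bp and mle at 36962 bp were farther than 75.2% and 87.8% of genes.

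**Figure D4:**
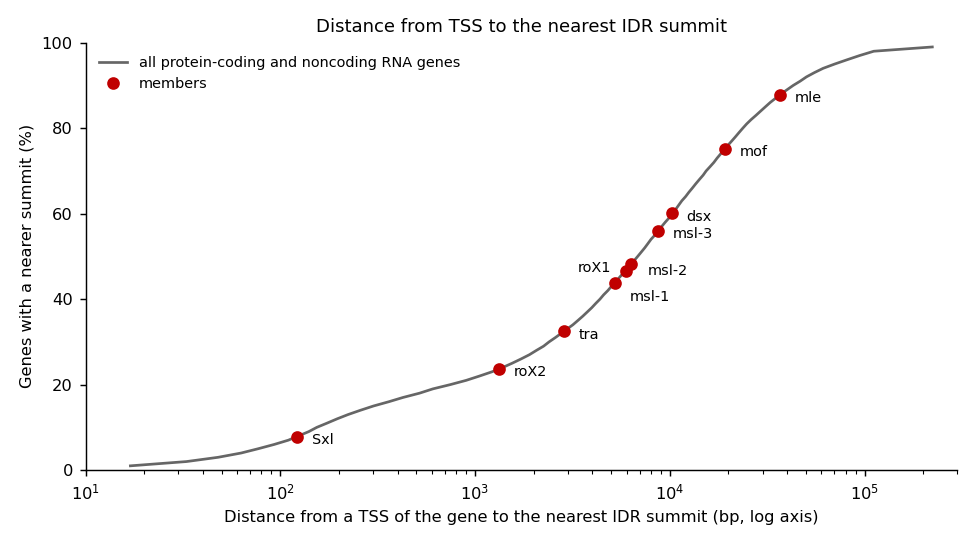
Share of genes whose nearest IDR summit is closer than a given distance from a TSS (horizontal axis in bp, logarithmic), over all 16725 genes (line), with the 10 genes marked on it (points). Sxl lies at 122 bp and mle at 36962 bp, and the other 8 spread along the middle of the line.

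Of the 9 peaks, 4 were in the stronger part of the IDR list, above its median signal, and 5 were below it. Their replicate means ran from 182 ± 13.4 at Sxl (1413 bp, n = 3) to 50.7 ± 6.96 at Sxl (2971 bp, n = 3). In the order of the means, the ranges of the top 2 peaks did not overlap, and every other pair of neighbours did. The 9 peaks otherwise form a graded series. Of the 9, 7 were in all 3 replicate lists and 2, the peak at the Sxl start and the tra peak, in replicates 1 and 3. Over all IDR peaks, 89.9% were in all 3 lists, and replicate 2 held fewest of them, at 92.1% against 98.4% in replicate 1 and 98.9% in replicate 3. Replicate 2 also had the fewest regions that reach a −log10 q of 2, at 3212, while replicate 1 had 9759 and replicate 3 had 6498. The part of this in the 2 missing peaks was not tested.

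**Figure D5:**
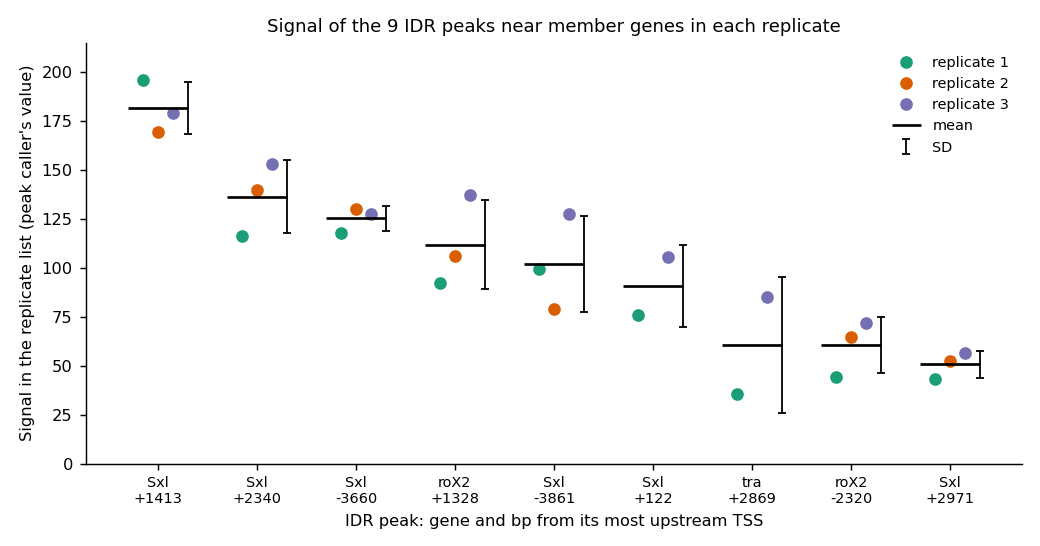
Signal of each of the 9 IDR peaks in replicates 1, 2 and 3 (points), ordered by their mean (horizontal line, with the SD as the bar on its right), with the gene and the distance of the summit from its most upstream TSS below. The Sxl peak at 1413 bp spans 169.5 to 196 and stands clear of the next, and the ranges of all other neighbours overlap.

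The IDR peaks closest in pooled signal to the strongest Sxl peak were those nearest to Duox (rank 818, signal 547), CG32259 (819, 546), cnn (821, 546) and CG12316 (822, 545). Duox encodes an oxidase and cnn a centrosomal protein. In replicates 1, 2 and 3 the Duox peak ranked 706, 780 and 1081, and the CG12316 peak ranked 534, 685 and 1755. The Sxl peak, at 785, 932 and 833, had the narrowest range of ranks among the 5.

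A total of 5 DNA words were searched on both strands in the 200 bp at each of the 9 summits. The GA repeat GAGAGAGA, which occurs in MSL recognition elements and is bound by CLAMP and GAGA factor, was at 0 of the 9, against 2.33% of all IDR summits. The homeodomain core TAATTA was also at 0 of the 9, against 16.7% of IDR summits and 11.7% of pooled regions that overlap no IDR peak. A further homeodomain form, CATTAAN or TATTAAN with A or G as the last base, was at 2 of the 9, both in Sxl, against 26.8% of IDR summits and 18.4% of the lower regions. It is the word in capitals in the Sxl sequences at 1413 and 2971 bp, on the minus strand in the second of these. The peak past tra held both remaining words, TATCGATA, the DNA replication-related element, and the reverse complement of GGTCACAC, the promoter element known as motif 1. They occur at 2.36% and 1.86% of IDR summits, and both are found at promoters of broadly expressed genes. The words are short, and a match is a description rather than a shown site. The GC content of the 9 windows had a median of 36.5%, the same as over all IDR summits, against 42.5% in the lower regions.

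Around the 10 genes, the wider pathway was read from a list of 33 further regulators and targets. An IDR summit within 1000 bp of a TSS was found for 9 of the 33, 27.3%, beside the 21.6% of all genes. Among the early autosomal or maternal regulators of Sxl it was 4 of 7, and gro, da, emc and Stat92E were the genes. Among the X-linked elements of the X-counting signal, sisA, sc, upd1 and run, it was 0 of 4. Among partners in RNA processing and translation it was 3 of 10 (fl(2)d, Unr and how), among partners of the MSL complex 1 of 5 (JIL-1), and among partners and targets downstream of tra and dsx 1 of 7 (fru). The fl(2)d summit was nearer to a TSS of CG13339, 99 bp away, than to that of fl(2)d, 206 bp away. At the fl(2)d and da summits the replicate 2 list held no region.

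The strongest of these was at gro, which encodes a corepressor that acts on the early Sxl promoter. Its peak (chr3R:26042384-26042651), 114 bp from a gro TSS, had a pooled signal of 1040 at rank 229, and 276, 380.0 and 361 in replicates 1, 2 and 3. Stat92E, the transcription factor activated by the upd1 ligand, had a peak (chr3R:20550603-20550847) of 662 at rank 565, with 227, 185 and 279 in the replicates. Both stood above the strongest Sxl peak in pooled signal. The peak at Unr (chr3L:8442244-8442667), whose product acts with Sxl on msl-2 mRNA, had a pooled signal of 374.5 at rank 1521, with 124 in replicate 1, 125 in replicate 3 and no region in replicate 2. JIL-1, a histone kinase enriched on the male X, had a peak (chr3L:11092199-11092622) of 344 at rank 1722, with 149.7, 86.6 and 109.8 in the replicates. fru, the male courtship gene spliced under the control of tra, held 7 IDR summits in its body. It is 131314 bp long, and of the 47 genes at least as long, 14.9% had at least as many. fru is named for that count, after its values were seen, as are the weaker da, emc, fl(2)d and how, whose pooled signals ran from 156.1 to 280.1.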

How the data were processed

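ChIP-seq regions from 3 biological replicates were analysed, grouped by the labels into 1 group. Per the file headers, each replicate and the pooled reads have a list of peaks and background, and the IDR list derives from them. The signal of each region and its −log10 q were deposited by the authors. No aligner, caller or threshold of the IDR step is given in the sources used here. Lists on dm3 were not used.

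A summit was assigned to genes of Ensembl release 115 (genome release 6, BDGP build 54) by distance to a TSS (1000 bp), position in the gene, or 5000 bp around it; a replicate's signal at a peak is that of its region holding the summit. Python 3.11.15, numpy 2.4.6, pandas 2.3.3 and matplotlib 3.10.9 were used. As a check of the code, summits were simulated within 1000 bp of a TSS, and 200 of 200 planted genes among 16725 were recovered. The check does not test which gene a real peak belongs to. There is 1 group, so no test was made, and counts stand beside shares of all genes. All 10 members, every IDR peak within 5000 bp of them, the 4 pathway genes with the highest pooled signals and the 4 peaks ranked next to the strongest member peak were named. The annotation lists vfl as zld and Mtor as Mgtor. The members and lists were chosen with earlier results of these data known. Counting by nearest TSS, and over protein-coding genes alone, were chosen after seeing the data.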

Additional observations from a re-analysis of the deposited data

How the results depend on the processing

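The count of genes with a summit within 1000 bp of a TSS was 1 under the stronger IDR peaks (2793; 13.0% of all genes), presence in all 3 replicate lists (19.0%), a 500 bp window (17.8%), and without each replicate in turn (range 1 to 1; at most 16.6% of all genes). The count was also 1 among protein-coding genes (23.2% of all protein-coding genes). With reciprocal overlap and with the most upstream TSS it was 1 too, and the share over all genes was not computed for these. With pooled regions of a −log10 q of at least 2 it became 2, adding dsx, beside 24.0% of all genes. Counting only summits nearest to the gene's own TSS gave 1 gene with a summit in the body in place of 2 and 1 within 5000 bp in place of 3, because the roX2 and tra peaks are nearer to other genes. With replicate 1, 2 or 3 set aside by the filter described above, the count within 5000 bp was 2 and the body count stayed at 2. The gene lost each time was tra, whose peak ranked 12787 in replicate 1 and was absent from replicate 2. For these counts by nearest TSS, within 5000 bp and in the body, the share over all genes was not computed. The mean over replicate lists was 1.0 to 1.5 with 1 left out. The pathway count was 9 of 33 at 500 bp and 6 of 33 among the stronger peaks, beside the same 17.8% and 13.0%. With reciprocal overlap the mean signal of the Sxl peak at 2340 bp was 116, and only replicate 1 met that overlap. In 100 bp windows 1 summit held a form of the homeodomain word and 0 held TATCGATA. No comparison between groups was possible because there is 1 group. The signals of different peaks are paired by replicate, and no paired test between peaks was made. With unknown depth, a gene without a peak had none detectable in these lists.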

Other observations

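Replicate 3 held a region 300 bp past the 3′ end of mle, the helicase gene, with a signal of 78.1 at rank 3478 of 30000. Replicate 2 had one 236 bp past the end at 33.3, rank 10630. Neither replicate 1 nor the pooled list held a region there. Such absences from the pooled list were uncommon among strong regions: 138 of the 5586 highest regions of replicate 3 had no pooled region at their summit (2.47%), with 165 in replicate 1 and 155 in replicate 2.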
